A study of Homo sapiens with 12 samples.

Results

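The genes described here encode the motile cilium and its axoneme. They are 58 genes chosen by name: 4 transcription regulators and the parts of the dynein arms, docking complexes, nexin-dynein regulatory complex, radial spokes, central pair and doublet microtubules, with the factors that assemble the arms. They take 59 of the 58735 rows of the deposited gene count table, because CCDC39 has 2 identifiers, and 47 rows passed the filter on low counts in at least 1 comparison. The list was drawn up with the response of xenografts to BBOX1 already known, so values of that response are given as a description. The RNA came from 786-O, a human cell line derived from a clear cell carcinoma of the kidney. All cells carried a lentiviral vector that either restored BBOX1, the last enzyme of carnitine synthesis, or was empty, and had been selected with puromycin or neomycin depending on the vector. Each kind was grown in DMEM with 10% serum or as a xenograft in NSG mice, an immunodeficient strain, of 6 to 8 weeks. This gave 4 groups of 3 libraries: BBOX1 in culture, empty vector in culture, BBOX1 xenografts and empty-vector xenografts. The labels name no promoter for the vector, no clone and no grafting site, and the tumours were homogenised whole, so host cells could be included. Nor do they tie replicates to separate cultures or animals, so p-values here cover the spread among the samples alone, and that spread may be technical.

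Motile cilia beat because axonemal dyneins slide the outer doublet microtubules against each other, while radial spokes and the central pair regulate that sliding. FOXJ1, a forkhead transcription factor, switches on most of these genes in multiciliated cells of airway, ependyma and oviduct, together with RFX factors that bind the X-box motif in ciliary promoters. Renal tubule cells normally carry a solitary, non-motile primary cilium, which lacks most of these proteins, and 786-O lacks functional VHL, a protein that helps to maintain that cilium.

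Promoters are shown first because they show the motif through which RFX factors are known to act and which recurs in this list. RefSeq promoters (GRCh38.p14, 250 bases before to 50 after the gene start) were matched for 45 members. Both strands were searched for an X-box, written here as GTNNCC, then 0 to 3 bases, then NGNAAC. A full X-box occurred in 18 of these 45 promoters (40%), against 5.01% of all 27305 promoters in the table. The half-site GTTNCC occurred in 71.1% against 45.2%, and the forkhead motif GTAAACA in 3 promoters (6.67%) against 3.41%. Capitals below mark the X-box matches, and a palindromic match counts on both strands. DNAH1, an inner-arm dynein heavy chain, lies at chr3:52316069-52316368 (plus strand). CCDC40, part of the ruler that spaces dyneins along the axoneme, lies at chr17:80036392-80036691 (plus strand). DNALI1, an inner-arm light intermediate chain, lies at chr1:37556690-37556989 (plus strand). SPAG17, a central pair protein, lies at chr1:118185179-118185478 (minus strand). CFAP99 lies at chr4:2418705-2419004 (plus strand). C1orf194, now named CFAP276 in RefSeq and a protein of the doublet microtubule lumen, lies at chr1:109113782-109114081 (minus strand) and held no full match in this window.
DNAH1: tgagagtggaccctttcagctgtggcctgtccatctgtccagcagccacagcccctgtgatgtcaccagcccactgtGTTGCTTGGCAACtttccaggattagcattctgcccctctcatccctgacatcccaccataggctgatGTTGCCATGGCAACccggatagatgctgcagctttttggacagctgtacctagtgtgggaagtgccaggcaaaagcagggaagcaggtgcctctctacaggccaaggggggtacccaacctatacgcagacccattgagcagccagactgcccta
CCDC40: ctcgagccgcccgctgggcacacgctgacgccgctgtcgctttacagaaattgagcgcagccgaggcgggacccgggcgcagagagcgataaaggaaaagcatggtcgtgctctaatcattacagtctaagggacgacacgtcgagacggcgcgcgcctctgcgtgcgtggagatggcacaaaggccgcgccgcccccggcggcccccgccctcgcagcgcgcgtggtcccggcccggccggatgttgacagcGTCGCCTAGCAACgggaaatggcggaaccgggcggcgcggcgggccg
DNALI1: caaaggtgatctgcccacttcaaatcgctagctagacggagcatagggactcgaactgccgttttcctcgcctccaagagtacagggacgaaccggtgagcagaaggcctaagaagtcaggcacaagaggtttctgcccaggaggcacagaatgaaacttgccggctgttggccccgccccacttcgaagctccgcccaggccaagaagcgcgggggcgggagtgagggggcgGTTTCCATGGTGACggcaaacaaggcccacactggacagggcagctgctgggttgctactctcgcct
SPAG17: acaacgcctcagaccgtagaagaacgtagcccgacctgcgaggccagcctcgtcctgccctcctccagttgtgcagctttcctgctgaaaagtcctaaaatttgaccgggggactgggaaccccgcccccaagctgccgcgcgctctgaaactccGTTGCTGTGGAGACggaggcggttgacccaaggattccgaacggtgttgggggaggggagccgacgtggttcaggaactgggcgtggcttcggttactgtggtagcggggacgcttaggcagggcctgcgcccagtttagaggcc
CFAP99: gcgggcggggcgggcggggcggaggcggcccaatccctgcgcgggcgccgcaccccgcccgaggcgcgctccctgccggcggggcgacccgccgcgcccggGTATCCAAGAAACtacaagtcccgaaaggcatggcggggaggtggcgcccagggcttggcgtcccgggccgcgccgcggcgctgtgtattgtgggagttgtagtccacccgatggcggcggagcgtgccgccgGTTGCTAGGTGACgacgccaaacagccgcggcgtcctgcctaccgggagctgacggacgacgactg
C1orf194: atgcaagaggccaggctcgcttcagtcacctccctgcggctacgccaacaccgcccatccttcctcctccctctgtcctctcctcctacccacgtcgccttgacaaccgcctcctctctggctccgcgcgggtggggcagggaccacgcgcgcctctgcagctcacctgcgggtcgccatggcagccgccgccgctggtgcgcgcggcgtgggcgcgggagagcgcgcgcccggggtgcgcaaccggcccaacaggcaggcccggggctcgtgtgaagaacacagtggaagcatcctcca
The first match in DNAH1 spans -173 to -161 from the gene start, and its second is the palindrome GTTGCCATGGCAAC. The match in CCDC40 spans 3 to 15, that in DNALI1 -17 to -4 and that in SPAG17 -95 to -82. Between settings, tested rows with an X-box had a median log2 difference of 2.23 (n = 11) with the empty vector and those with a promoter but no X-box 1.17 (n = 21). With BBOX1 the medians were 2.32 (n = 13) and 1.66 (n = 23), and 2.46 and 1.74 without BBOX1 xenograft replicate 1, a library that stood apart. Some of these rows passed the filter on low counts only through their tumours, which favours a rise. With the empty vector they were DNAI1, CCDC114 and SPAG17 with an X-box and RSPH4A without. With BBOX1 DNALI1 and CFAP99 with an X-box and C1orf194 and a row of CCDC39 without were also of that kind. The medians are therefore descriptions that cannot show an effect of the motif, and a match is not a binding site.

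BBOX1 itself had 16953 to 29665 counts in each library labelled BBOX1, 0 in each empty-vector culture and 6 to 14 in the empty-vector xenografts, which is the pattern the labels give. Total counts ran from 13729000 to 26758700 per library. Replicates lay close in culture (biological coefficient of variation 3.33%) and further apart in xenografts (16.7%). BBOX1 xenograft replicate 1 stood apart: its counts gave a chi-square per degree of freedom of 41.0 and 40.9 against replicates 2 and 3, which gave 8.61 against each other, so counts and medians that rest on it are given with and without it, and each gene's values show it beside the other replicates. All 10 renal carcinoma markers had counts in every group, with summed levels of 3725 to 3937 CPM (counts scaled to a common library size) in culture and 5812 to 7363 CPM in xenografts. VIM was the highest of them in each group. CA9 averaged 0.879 and 0.698 CPM in empty-vector and BBOX1 culture, and 40.1 and 5.20 CPM in the matching xenografts. NDUFA4L2 averaged 0.214 and 0.483 CPM in culture, and 5.93 and 3.99 CPM in xenografts. Of 6 fibroblast markers 5 or 6 had counts in each group, and their sum was 8.83 to 10.2 CPM in culture and 242 to 431 CPM in xenografts, mostly COL1A1 and COL3A1. The list did not move together. LUM went from 1.48 to 21.4 CPM on average with the empty vector and from 1.74 to 2.64 CPM with BBOX1. PDGFRB was lower in xenografts, from 1.30 to 0.377 CPM with the empty vector and from 0.833 to 0.394 CPM with BBOX1. COL1A2 was at 0 in culture and averaged 0.141 CPM in empty-vector and 0.069 CPM in BBOX1 xenografts. DCN averaged at most 0.040 CPM in any group and was at 0 in empty-vector xenografts. Leukocyte markers (2 to 4 of 6 with counts) summed to at most 2.80 CPM, with CD3E and LYZ at 0 throughout. Endothelial markers (3 or 4 of 5) summed to at most 2.20 CPM, with CDH5 at 0, and erythroid markers (1 or 2 of 4) to at most 0.767 CPM, with HBA1 and HBB at 0. Whether mouse reads were removed is not given in the sources used here, and the part of host RNA in the differences between settings was not tested.

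The cilium genes were lower in culture than in tumours. The median over the 59 rows was 0.542 to 0.779 CPM in the culture libraries, 1.65 to 2.13 CPM in empty-vector xenografts and 3.22 to 4.34 CPM in BBOX1 xenografts. Of the 59 rows, 23 to 29 reached 1 CPM in each of the 6 culture libraries, 36 to 39 in empty-vector xenografts and 42 to 44 in BBOX1 xenografts. Over all rows of the table the share at 1 CPM moved less, from 23.1% to 23.3% in culture and from 24.9% to 25.8% in xenografts. Summed over the 59 rows, the level was 210 to 228 CPM in culture, 355 to 427 CPM in empty-vector xenografts and 482 to 523 CPM in BBOX1 xenografts. The 3 ranges did not overlap. The gaps between BBOX1 and empty-vector xenografts in these values are a description, since the members were chosen with that response known. In a homogenised tumour, more cells with these transcripts and more RNA per cell cannot be told apart.

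**Figure D1:**
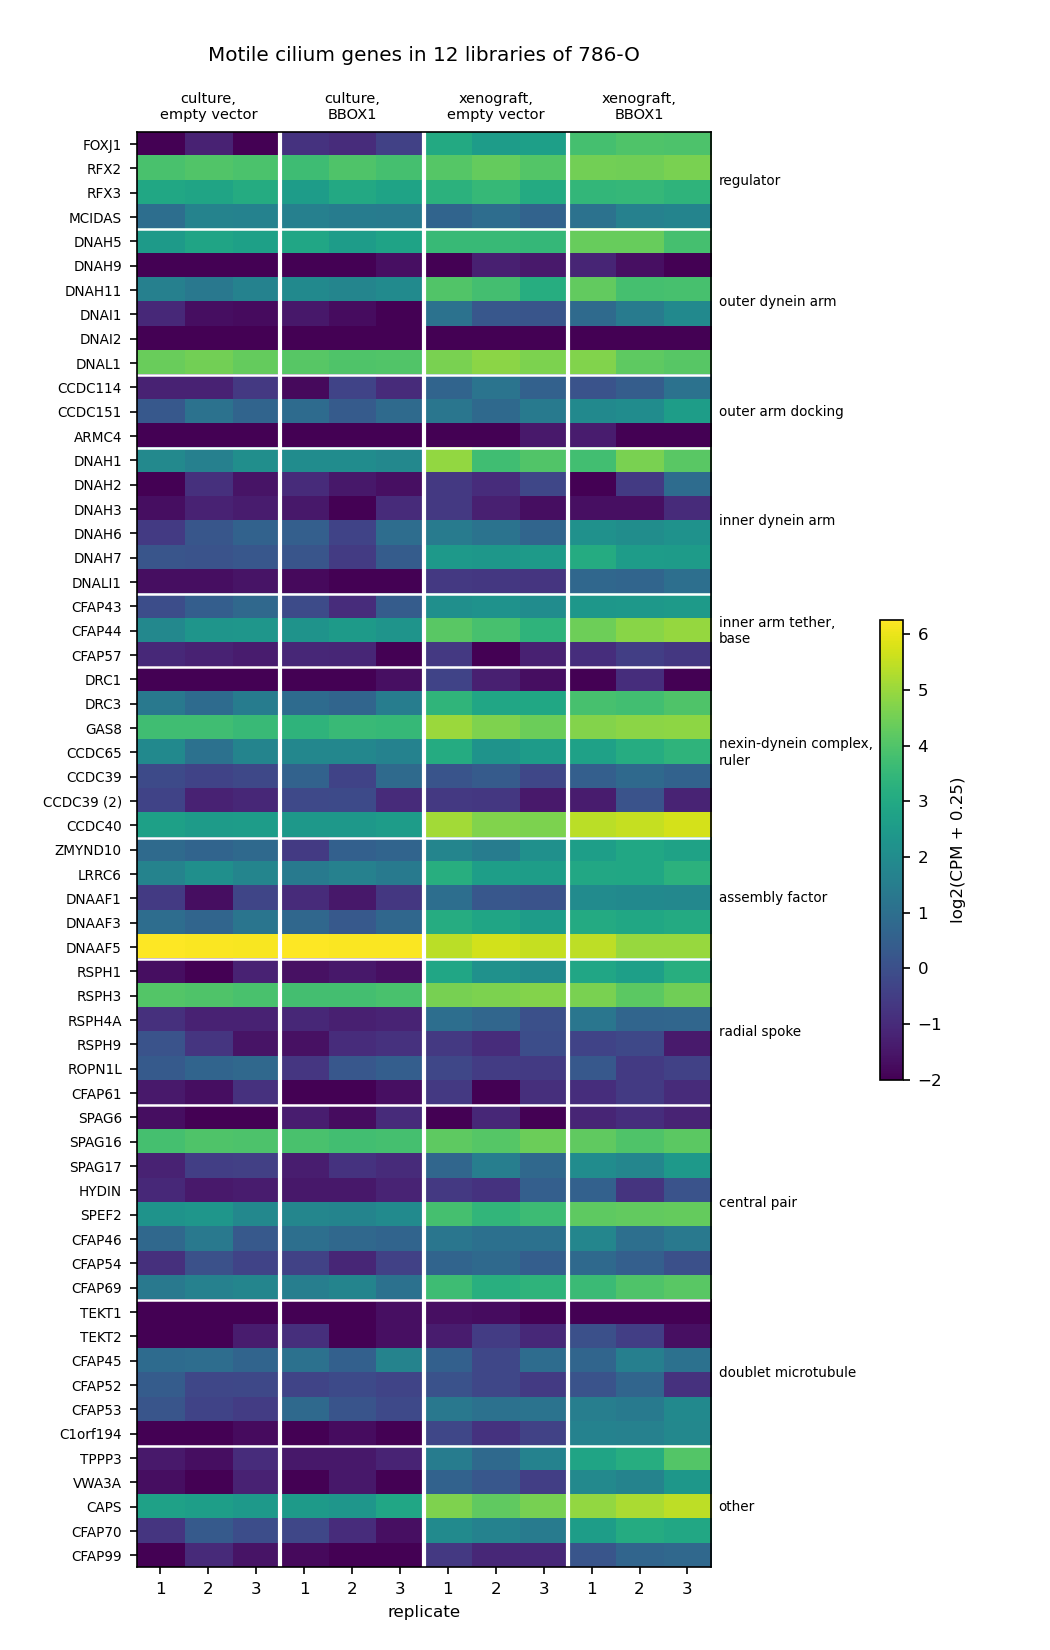
Heat map of log2(CPM + 0.25) of the 59 rows (vertical, by role) in the 12 libraries (horizontal, by group). Most rows are low in the 6 culture libraries and higher in the 6 xenografts, while DNAAF5 is the highest in culture and DNAI2 is at 0 throughout.

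Empty-vector xenografts were compared with empty-vector culture to show the effect of the setting without BBOX1. It shares the empty-vector tumours with the contrast that helped to choose the members. Of 41 member rows tested, 32 rose and 3 fell at an edgeR adjusted p under 0.05, where 35.5% of all 15914 tested genes rose and 33.1% fell. Their median log2 difference was 1.56, against 0.04 over all genes. A row that is silent in culture enters this test only through its level in tumours and then had to differ. This held for 9 of the rows (FOXJ1, DNAI1, CCDC114, DNAAF1, RSPH1, RSPH4A, SPAG17, CFAP54 and TPPP3), which were too low for the test between the cultures. All 9 rose, as did 84.9% of the 1172 genes of that kind, so their values are given as a description. Of the 32 member rows that were also tested in culture, 23 rose and 3 fell, where 31.6% of 14742 such genes rose and 35.8% fell. Without the filter on low counts, 58 rows were tested, 33 rose and 3 fell, where 19.8% of 31423 genes rose and 18.6% fell, and the medians were 1.62 and 0.15. Of the 59 rows, 31 share exon bases with a gene on the other strand and 9 with one on the same strand, and such rows are uncertain.

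Among the regulators, FOXJ1 showed the widest gap between settings. It had 0, 3 and 0 counts in empty-vector culture and 119, 103 and 103 counts in empty-vector xenografts, or 7.92, 5.61 and 6.07 CPM. All 3 tumours lay far above all 3 cultures. The ratio was 120 (95% interval from counting error 40.8 to 587). RFX2 and RFX3, which bind the X-box, were present in culture already. RFX2 stood at 14.6, 15.8 and 14.8 CPM in empty-vector culture and at 16.8, 19.5 and 16.5 CPM in empty-vector xenografts, groups that did not overlap but did not pass the test (log2 0.24, SE 0.11, edgeR adjusted p = 0.0664). RFX3 stood at 7.26, 6.77 and 8.20 CPM against 9.59, 11.2 and 8.02 CPM and passed narrowly (log2 0.39, SE 0.16, edgeR adjusted p = 0.0471), with 1 tumour inside the range of the cultures. Without any library other than xenograft replicate 3 this call was lost (adjusted p up to 0.202). MCIDAS, which encodes multicilin and starts the multiciliated cell programme, went the other way. It stood at 1.73, 3.0 and 2.94 CPM in culture and at 1.33, 1.69 and 1.30 CPM in xenografts (log2 -0.81, SE 0.30, edgeR adjusted p = 0.0305), a fall that was lost without culture replicate 2 or 3 or xenograft replicate 1 or 3 (adjusted p up to 0.115).

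Outer arms set the beat frequency. Of the outer-arm rows, DNAH5 was called higher by log2 0.90 (SE 0.14), DNAH11 by 2.28 (SE 0.23) and DNAL1, a light chain, by 0.30 (SE 0.10). DNAI1, an intermediate chain, was higher by log2 3.44 (SE 0.63) but entered the test only through its tumours. DNAI1 was nearly silent in culture, with 4, 1 and 1 counts against 29, 17 and 15 in tumours. DNAH11 shares 833 exon bases with CDCA7L on the other strand, and the library kit does not mark strand, so their reads cannot be told apart there; CDCA7L went from 54.5 to 12.8 CPM, opposite to DNAH11. The call of DNAL1 was lost without culture replicate 1 or 3 or xenograft replicate 2 (adjusted p up to 0.0912). Of the docking proteins that seat the outer arm, CCDC114 was higher by log2 2.52 (SE 0.45), from 3, 3 and 9 counts to 20, 37 and 21. CCDC114 entered the test only through its tumours, and CCDC151 did not pass (log2 0.53, SE 0.34). CCDC114 shares 217 exon bases with EMP3 on the other strand, which went from 74.9 to 155 CPM, so its rise is uncertain.

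Inner arms shape the bend. DNAH1 rose from 3.45, 2.76 and 3.97 CPM to 30.0, 12.9 and 16.1 CPM (log2 2.53, SE 0.29), and DNAH7 from 0.893, 0.839 and 0.936 CPM to 5.26, 4.96 and 5.37 CPM (log2 2.55, SE 0.24). Neither gene's groups overlapped. DNAH6 rose by log2 1.14 (SE 0.40), a call lost without culture replicate 1 or 2 or xenograft replicate 1 or 2 (adjusted p up to 0.0976). CFAP43 and CFAP44, which are needed for the sperm flagellum in humans, rose by log2 1.87 (SE 0.29) and 1.70 (SE 0.21). CFAP44 shares up to 3031 exon bases with neighbouring genes, so its level is uncertain.

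The nexin-dynein regulatory complex and its ruler hold neighbouring doublets together and set the spacing of the arms. CCDC40 had 104, 93 and 126 counts in culture and 519, 475 and 413 in xenografts, or 6.19, 5.57 and 5.61 CPM against 34.6, 25.9 and 24.4 CPM (log2 2.30, SE 0.15, edgeR adjusted p = 3.49e-08). Every tumour exceeded every culture. DRC3 rose by log2 1.96 (SE 0.23), GAS8 by 1.06 (SE 0.14) and CCDC65 by 1.11 (SE 0.28). GAS8 shares up to 1411 exon bases with genes on the other strand, among them DBNDD1, which was at 9.49 CPM in culture and 23.5 CPM in tumours, so the rise of GAS8 is uncertain. DRC3 shares up to 646 with ATPAF2, which went from 7.97 to 12.8 CPM, and is uncertain too. CCDC39, the partner of CCDC40 in the ruler, did not pass (log2 0.46, SE 0.39), and its 2 rows share 3001 exon bases, so the split between them is uncertain.

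Assembly factors fold dynein arms in the cytoplasm before transport. ZMYND10 rose by log2 1.17 (SE 0.28), LRRC6 by 1.03 (SE 0.22) and DNAAF3 by 2.02 (SE 0.24). DNAAF1 was higher by log2 1.64 (SE 0.56) but entered the test only through its tumours. Its call was lost without culture replicate 1 or 2 or xenograft replicate 1 (adjusted p up to 0.0939). DNAAF1 shares 450 exon bases with TAF1C on the other strand and is uncertain, while TAF1C went from 72.5 to 82.1 CPM. DNAAF5 fell. It was the highest member in culture, at 76.3, 73.5 and 72.0 CPM, and stood at 42.3, 51.4 and 46.1 CPM in xenografts (log2 -0.65, SE 0.08, edgeR adjusted p = 9.41e-06), with no overlap. DNAAF5 shares 383 exon bases with PRKAR1B on the other strand, which went from 47.6 to 33.6 CPM, so its fall is uncertain.

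Radial spoke genes split. RSPH1 had 1, 0 and 4 counts in culture and 107, 79 and 61 in xenografts (log2 5.72, SE 0.54). It shares 97 exon bases with SLC37A1 on the other strand, which went from 8.02 to 19.4 CPM, and is uncertain. RSPH4A was higher by log2 2.57 (SE 0.49), from 3 to 5 counts per library to 13 to 26. RSPH1 and RSPH4A entered the test only through their tumours. RSPH3 rose by log2 0.69 (SE 0.10). ROPN1L, a spoke protein known from sperm, fell by 1.39 on the log2 scale (SE 0.38), from 17, 22 and 33 counts to 9, 8 and 7. Of the central pair, SPEF2 rose by log2 1.56 (SE 0.18), CFAP69 by 1.94 (SE 0.20) and SPAG16 by 0.33 (SE 0.11), and CFAP46 did not pass. SPAG17 (log2 2.23, SE 0.44) and CFAP54 (log2 1.31, SE 0.40) were higher too but entered the test only through their tumours. The call of SPAG16 was lost without culture replicate 1 or 3 or xenograft replicate 3 (adjusted p up to 0.0940), and that of CFAP54 without culture replicate 1 (adjusted p = 0.0652). SPAG17 shares 1759 exon bases with WDR3 on the other strand and is uncertain, while WDR3 went from 57.9 to 27.3 CPM.

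Of 6 doublet microtubule rows 3 were tested. CFAP53 rose by log2 1.70 (SE 0.36), and CFAP45 and CFAP52 did not pass (log2 -0.41, SE 0.38, and -0.32, SE 0.44). C1orf194 was too low to enter the test, with 24 counts over the empty-vector xenografts and 1 over the empty-vector cultures. That is a ratio of 26.7 (95% interval from counting error 4.35 to 1097). Outside these complexes, TPPP3, a tubulin polymerisation protein abundant in multiciliated airway cells, was higher by log2 3.82 (SE 0.50). It went from 2, 1 and 6 counts to 38, 28 and 49 and entered the test only through its tumours. CAPS, the calcium-binding calcyphosine, rose by log2 1.95 (SE 0.14), from 6.31, 5.93 and 5.26 CPM to 24.9, 18.7 and 23.2 CPM. CFAP70 rose by log2 2.12 (SE 0.36), from 6, 17 and 16 counts to 55, 54 and 42.

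**Figure D2:**
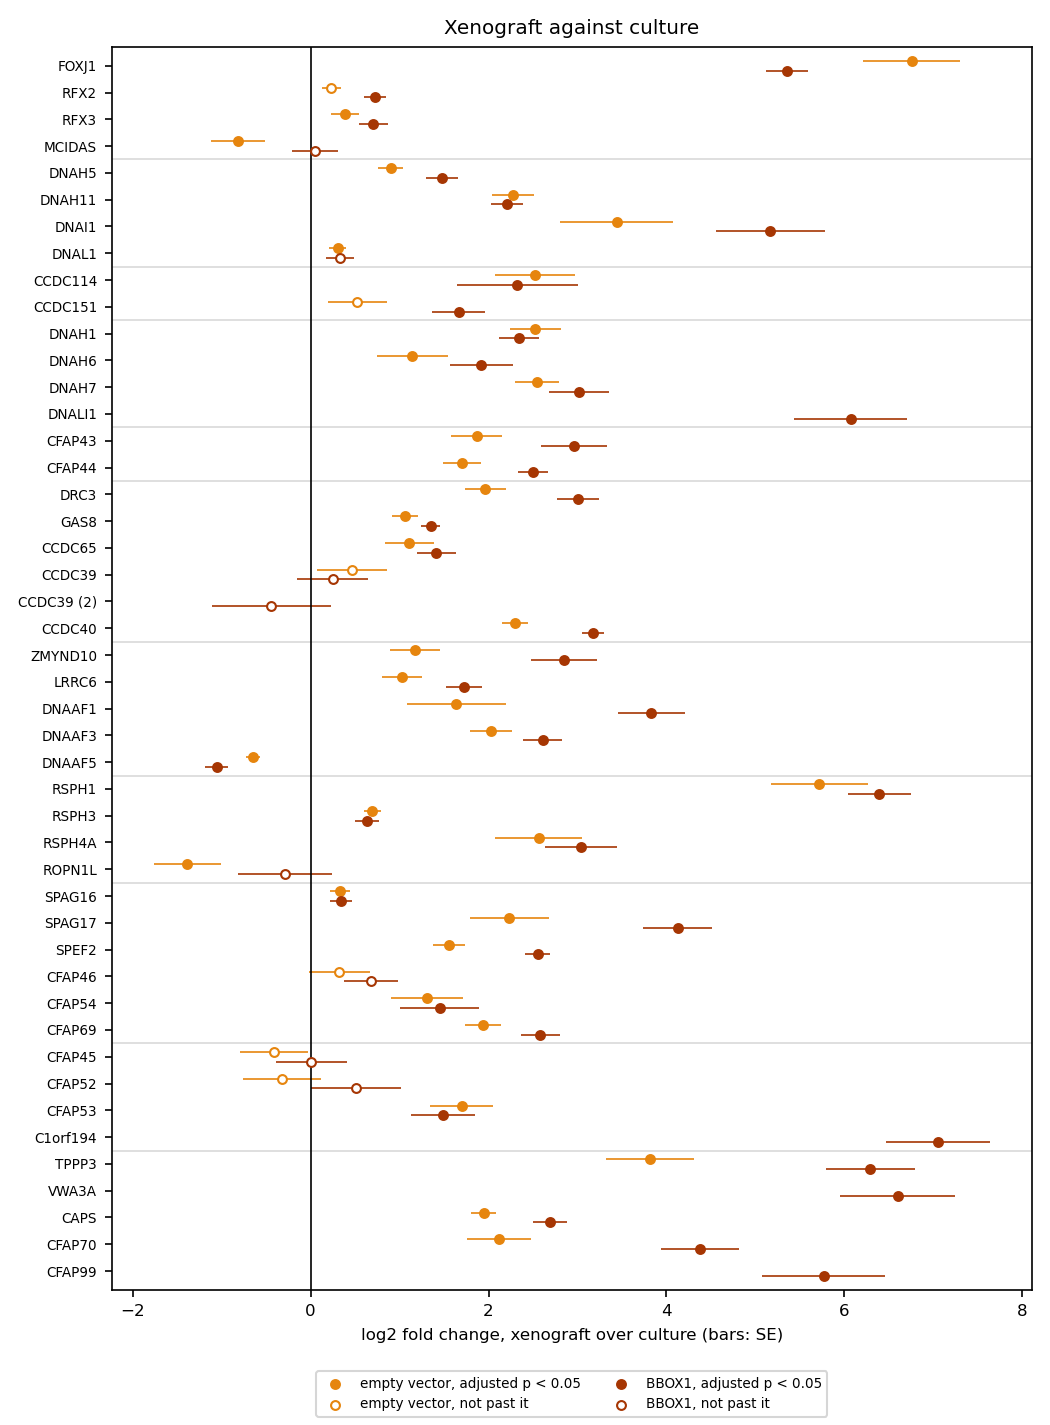
Log2 fold change of xenograft over culture (horizontal, bars are SE) for each member row tested (vertical, by role), with the empty vector and with BBOX1. Filled points passed an edgeR adjusted p under 0.05, and nearly all of them lie right of 0, with DNAAF5 left of it in both comparisons and MCIDAS and ROPN1L with the empty vector.

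BBOX1 xenografts were then compared with BBOX1 cultures, which share no library with the comparison above. The BBOX1 tumours also entered the contrast that helped to choose the members. Of 46 member rows tested 37 rose and 1 fell, where 36.1% of all 15906 tested genes rose and 32.1% fell. The median log2 difference was 2.33 against 0.07 over all genes. Without the filter 39 of 58 rows rose and 1 fell, where 20.6% of 30687 genes rose and 19.9% fell, and the medians were 1.95 and 0.25. Of the 32 rows also tested in culture, 24 rose and 1 fell, where 31.7% of 14695 such genes rose and 34.7% fell. The other 14 entered only through tumours: FOXJ1, DNAI1, CCDC114, DNALI1, DNAAF1, RSPH1, RSPH4A, SPAG17, CFAP54, C1orf194, TPPP3, VWA3A, CFAP99 and a row of CCDC39. Of these 14, 13 were higher, as were 89.3% of the 1211 genes of that kind, so their values are given as a description. FOXJ1 had 9, 5 and 8 counts in BBOX1 culture and 202, 229 and 236 in BBOX1 xenografts (log2 5.36, SE 0.23). RFX2 rose by log2 0.72 (SE 0.12) and RFX3 by 0.70 (SE 0.16), and MCIDAS had a difference of 0.05 (SE 0.25).

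Several members that passed the filter with BBOX1 and not with the empty vector were all but absent from BBOX1 culture. C1orf194 had 0, 1 and 0 counts there and 43, 42 and 53 in BBOX1 xenografts, which is a ratio of 189 (95% interval from counting error 33.3 to 7505). VWA3A had 0, 2 and 0 counts against 50, 44 and 78, a ratio of 118 (32.1 to 979). DNALI1 had 1, 0 and 0 counts against 21, 20 and 28, a ratio of 94.3 (16.4 to 3779), and CFAP99 had 1, 0 and 0 against 13, 20 and 23, a ratio of 76.6 (13.2 to 3077). Every tumour was above every culture for these 4 rows, which entered the test only through their tumours. CFAP99 shares 163 exon bases with RNF4 on the same strand, which went from 142 to 94.7 CPM, so its level is uncertain.

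TPPP3 rose from 3, 2 and 3 counts to 99, 127 and 257 (log2 6.29, SE 0.50), with replicate 3 well above the other tumours. RSPH1 rose from 2, 2 and 1 counts to 105, 88 and 138 (log2 6.39, SE 0.36), DNAI1 from 3, 1 and 0 counts to 23, 36 and 55 (log2 5.17, SE 0.61) and CFAP70 from 16, 5 and 1 counts to 85, 121 and 118 (log2 4.37, SE 0.44). The groups of these genes did not overlap, but TPPP3, RSPH1 and DNAI1 entered the test only through their tumours. The other risen rows ran from SPAG16 (log2 0.34, SE 0.12) to SPAG17 (log2 4.13, SE 0.39). Among them SPAG17, CFAP54, CCDC114, DNAAF1 and RSPH4A also entered only through their tumours. The calls of SPAG16 (without any single library other than xenograft replicate 2, adjusted p up to 0.148), CFAP54 (without culture replicate 2 or xenograft replicate 1, up to 0.0723) and CCDC114 (without xenograft replicate 3, 0.0683) were lost when a library was left out. DNAAF5 again fell, from 74.8, 74.6 and 74.4 CPM to 43.3, 31.7 and 31.1 CPM (log2 -1.06, SE 0.13, edgeR adjusted p = 0.000121). PRKAR1B, which shares exon bases with DNAAF5, went from 52.0 to 35.1 CPM, so this fall is uncertain too. Without BBOX1 xenograft replicate 1, 35 of 46 rows rose and 1 fell, where 38.4% of 16384 genes rose and 37.6% fell, and the medians were 2.48 and 0.03.

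In culture, BBOX1 was compared with the empty vector, and 27 of the 59 rows were too low to enter the test. Of 32 rows tested, 0 rose and 1 fell at an edgeR adjusted p under 0.05, where 8.53% of all 14960 tested genes rose and 7.86% fell. DESeq2 gave the same 0 and 1, where 6.6% of genes rose and 5.75% fell. So few rows cannot set the members apart from these shares. At an unadjusted p under 0.05 the edgeR counts were 1 and 2, for which no share over all genes was taken. The median log2 difference was -0.13, and values ran from -0.99 (SE 0.53) for CFAP70 to 0.88 (SE 0.40) for CCDC39. DNAL1 was the row that fell, from 20.6, 22.6 and 19.5 CPM to 17.1, 15.7 and 16 CPM (log2 -0.36, SE 0.09, edgeR adjusted p = 0.00335). Its groups did not overlap. DNAL1 lies on chromosome 14 (73644875 to 73703732, plus strand, GRCh38), where 35.3% of 464 tested genes fell in this comparison, against 6.98% of 14496 on other chromosomes; the part of that shift in the fall of DNAL1 was not tested. FOXJ1 was too low to enter the test, with 22 counts over the 3 BBOX1 cultures and 3 over the empty-vector cultures, which is a ratio of 6.69 (95% interval from counting error 2.01 to 34.9). Its 3 BBOX1 cultures, at 0.334, 0.271 and 0.503 CPM, lay above the empty-vector cultures, at 0, 0.180 and 0 CPM. RFX2, RFX3 and MCIDAS had log2 differences of -0.12 (SE 0.10), -0.18 (SE 0.14) and 0.00 (SE 0.23).

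In xenografts, levels were higher with BBOX1 for many members, a contrast that helped to choose them and is described here with no test. By the rule used above, 14 of 45 rows were called higher and 0 lower, where 1.91% of all 16126 tested genes were higher and 3.63% lower. In CPM, 24 rows lay higher in all 3 BBOX1 tumours than in any empty-vector tumour and 0 lay lower, where 13.8% of tested genes lay higher and 15.4% lower. Nothing is read from these counts. Members just inside the line were ZMYND10 (log2 1.02, SE 0.26) and SPEF2 (log2 0.63, SE 0.15), and just outside it DNAH6 (log2 1.13, SE 0.30) and DNAH5 (log2 0.65, SE 0.18).

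FOXJ1 reached 13.8, 15.7 and 15.1 CPM in BBOX1 tumours, against 7.92, 5.61 and 6.07 CPM in empty-vector tumours (log2 1.19, SE 0.19), so the BBOX1 tumours were all higher. RFX2 stood at 22.2, 21.8 and 24.2 CPM against 16.8, 19.5 and 16.5 CPM (log2 0.38, SE 0.14), also without overlap. RFX3 overlapped, at 10.8, 11 and 10.2 CPM against 9.59, 11.2 and 8.02 CPM. MCIDAS stood at 1.92, 2.88 and 3.06 CPM against 1.33, 1.69 and 1.30 CPM (log2 0.86, SE 0.34), near its level in culture.

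The widest differences in tumours belonged to low transcripts. C1orf194 had 43, 42 and 53 counts in BBOX1 tumours, against 9, 6 and 9 in the others (log2 2.66, SE 0.38). TPPP3 had 99, 127 and 257 counts against 38, 28 and 49 (log2 2.21, SE 0.36), and CFAP99 had 13, 20 and 23 against 6, 4 and 4 (log2 2.13, SE 0.49). VWA3A had 50, 44 and 78 counts against 19, 17 and 8 (log2 2.11, SE 0.40), and DNALI1 had 21, 20 and 28 against 6, 7 and 6 (log2 2.00, SE 0.42). None of these 5 genes had overlapping groups, and C1orf194 shares exon bases with KIAA1324 on the other strand, which makes its level uncertain. CFAP99 is uncertain too, since it shares exon bases with RNF4, which went from 108 to 94.7 CPM.

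Other members had smaller values. DNAAF1 had a log2 difference of 1.62 (SE 0.35), CFAP70 of 1.26 (SE 0.25), CFAP44 of 0.94 (SE 0.21), DRC3 of 0.80 (SE 0.19), CCDC40 of 0.74 (SE 0.16) and CAPS of 0.73 (SE 0.16). SPAG17 (log2 1.16, SE 0.34) and CCDC151 (log2 1.14, SE 0.31) were not among the rows called. TAF1C, which shares exon bases with DNAAF1, went from 82.1 to 124 CPM, and ATPAF2, which shares them with DRC3, from 12.8 to 10.3 CPM, so both members are uncertain, as is CFAP44. The large dyneins DNAH1, DNAH7 and DNAH11 differed by -0.09 (SE 0.30), 0.31 (SE 0.24) and 0.30 (SE 0.23), and their groups overlapped except for DNAH7. DNAAF5 and DNAL1 had differences of -0.39 (SE 0.15) and -0.33 (SE 0.17). Without BBOX1 xenograft replicate 1, the same rule gave 21 rows higher, all 14 among them, and 2 lower, which were DNAAF5 (log2 -0.56) and DNAL1 (log2 -0.53). In that fit 11.1% of all 16685 tested genes were higher and 14.7% lower. Leaving out any other single xenograft library gave 3 to 9 rows higher and 0 lower. Over all genes 0.132% to 0.687% were then higher and 0.927% to 1.85% lower. In the following values, BBOX1 xenograft replicate 1 is set beside the others. In BBOX1 xenograft replicate 1 DNAAF5 stood at 43.3 CPM, against 31.7 and 31.1 CPM in the other BBOX1 tumours, and DNAL1 at 25.4 against 18.3 and 17.0 CPM.

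**Figure D3:**
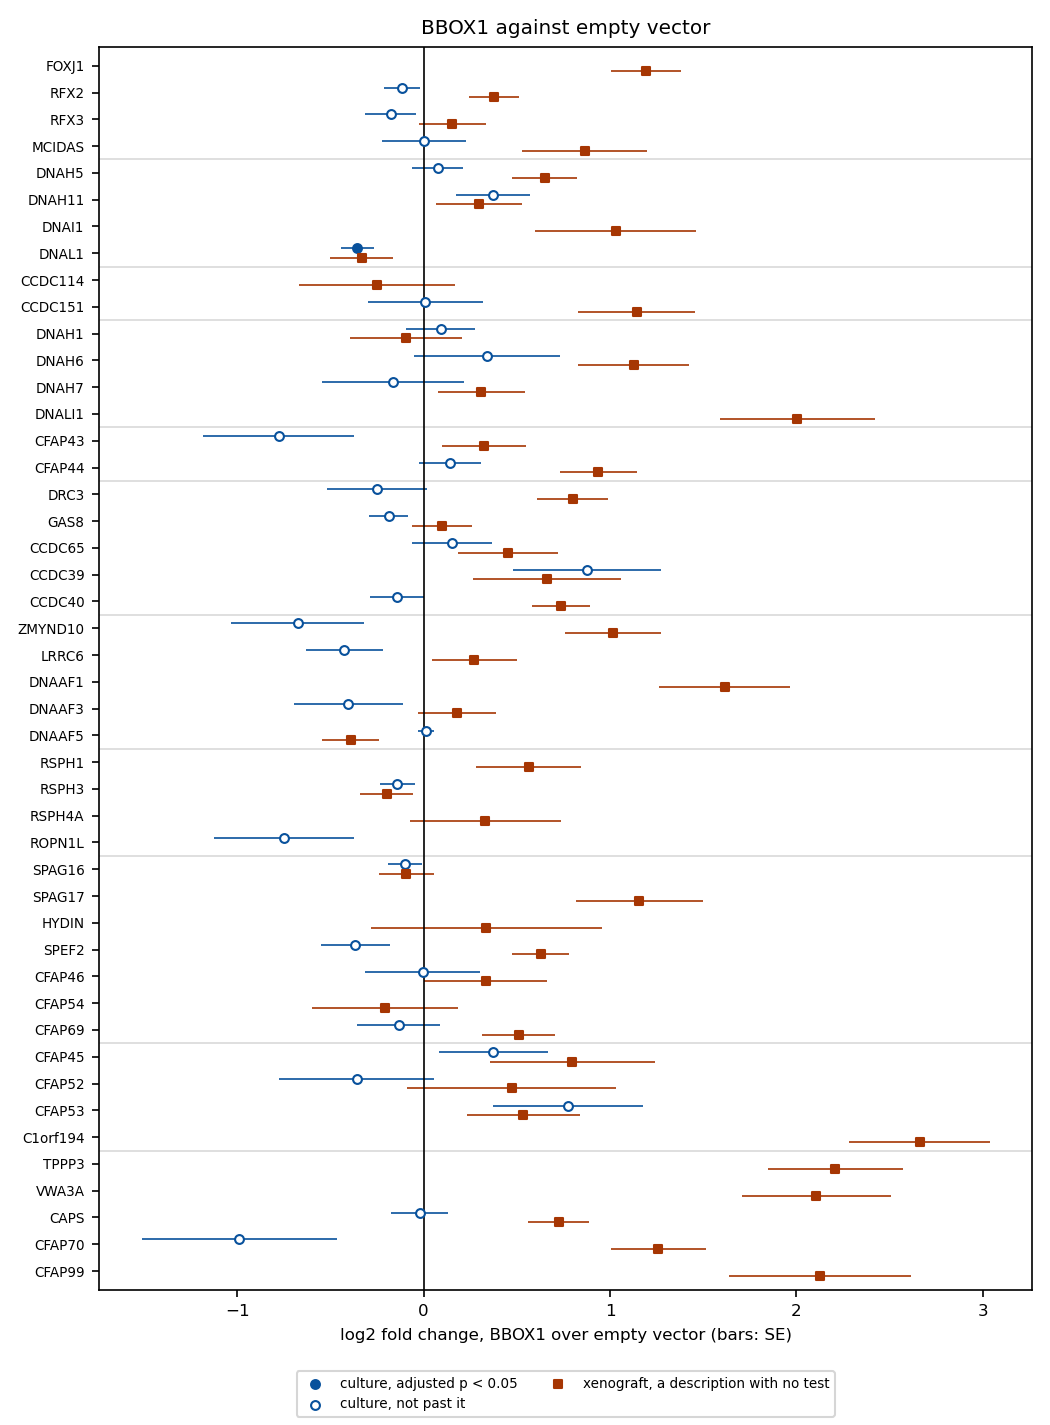
Log2 fold change of BBOX1 over empty vector (horizontal, bars are SE) for each member row tested (vertical, by role), in culture and in xenografts. Culture values lie around 0 with DNAL1 the filled point, and most xenograft values lie to the right, up to 2.66 for C1orf194.

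The difference between the BBOX1 effect in xenografts and that in culture contains the same contrast and is likewise a description. Of 47 rows 3 were called, all higher in xenografts, where 1.93% of all 16927 tested genes were higher and 3.26% lower: CCDC40 (difference 0.87 in log2, SE 0.20), SPEF2 (0.99, SE 0.23) and CFAP70 (2.25, SE 0.62). In culture CCDC40 stood at 5.04, 5.09 and 5.66 CPM with BBOX1 and 6.19, 5.57 and 5.61 CPM without. In tumours it stood at 42.2, 46.2 and 52.1 CPM with BBOX1, against 34.6, 25.9 and 24.4 CPM without. SPEF2 stood at 3.23, 3.03 and 3.58 CPM against 4.53, 4.86 and 3.39 CPM in culture and at 18.3, 19.2 and 19.4 CPM against 14, 10.6 and 12.4 CPM in tumours. For both genes the groups overlapped in culture and did not overlap in tumours. Without BBOX1 xenograft replicate 1 the count was 11 higher and 1 lower, where 8.23% of 17407 genes were higher and 15.8% lower.

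**Figure D4:**
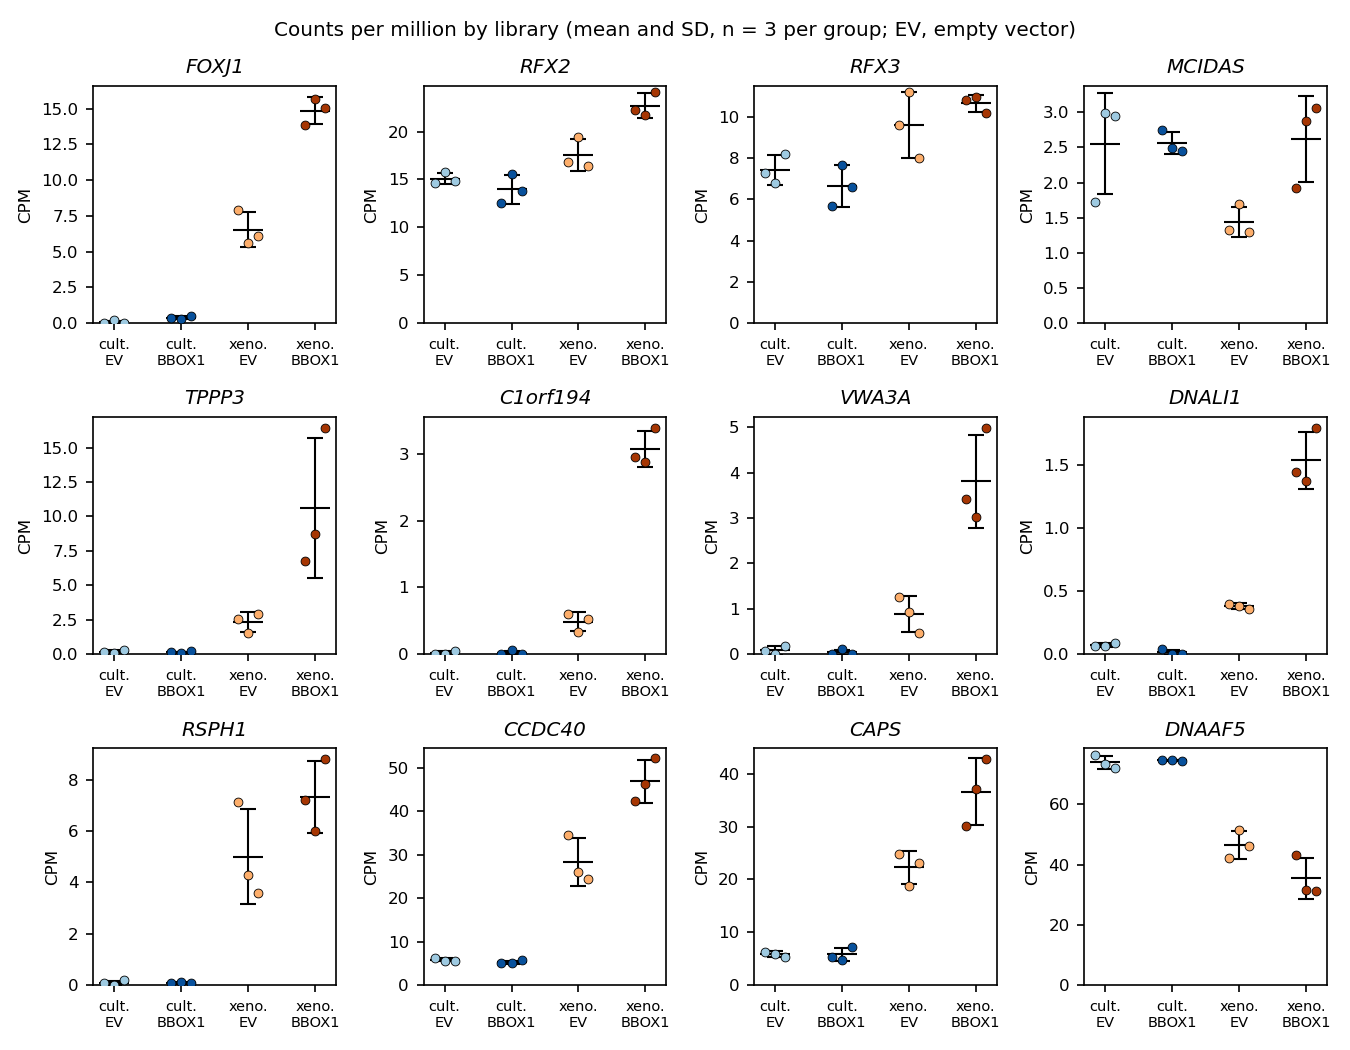
CPM (vertical, linear axis from 0) of 12 member genes in the 4 groups (horizontal), where each point is 1 library and lines show the mean and SD. FOXJ1, C1orf194, TPPP3 and RSPH1 sit near 0 in both cultures, while CCDC40 and CAPS start from a measurable culture level.

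Levels per transcript length show how the set was ordered. In RPKM, which is CPM divided by exon length in kilobases, DNAAF5 led in empty-vector culture at 10.4 ± 0.3 (SD, n = 3), followed by DNAL1 at 2.35 ± 0.18, RSPH3 at 2.35 ± 0.14 and GAS8 at 2.24 ± 0.11, which did not differ beyond their spread. FOXJ1 was 44th there, at 0.023 ± 0.039. In empty-vector xenografts DNAAF5 (6.53 ± 0.64), CAPS (5.44 ± 0.78) and GAS8 (4.64 ± 1.01) led, each within about the spread of its neighbour, and FOXJ1 was 8th at 2.48 ± 0.46. In BBOX1 xenografts CAPS led at 8.95 ± 1.55 RPKM and FOXJ1 was 2nd at 5.63 ± 0.35. DNAAF5 (4.96 ± 0.96), GAS8 (4.95 ± 0.22), CCDC40 (4.70 ± 0.50) and TPPP3 (4.06 ± 1.94) followed within their spread. Over BBOX1 replicates 2 and 3 alone the order was CAPS (mean 9.75), FOXJ1 (5.82), GAS8 (5.07), CCDC40 (4.93), TPPP3 (4.79) and DNAAF5 (4.40).

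A complete set of axonemal transcripts was not detected in any group. DNAI2, an outer-arm intermediate chain, had 0 counts in all 12 libraries. In all, 12 rows entered no test. TEKT1, a tektin of the doublet, reached at most 1 count in a library, the docking protein ARMC4 at most 2, the outer-arm heavy chain DNAH9 at most 3 and the central pair protein SPAG6 at most 4. DNAH3 reached at most 6 counts, CFAP57 and CFAP61 7, DRC1 8, TEKT2 11, RSPH9 14 and DNAH2 26. None passed the filter in any comparison, although some counts were uneven between groups. CFAP61 had 14 counts over the BBOX1 xenografts and 1 over the BBOX1 cultures, a ratio of 19.1 (95% interval from counting error 2.91 to 809), and TEKT2 had 14 over the empty-vector xenografts and 3 over the empty-vector cultures, a ratio of 5.19 (1.45 to 28.1). HYDIN, a large central pair protein with a near-identical genomic copy, had 2 to 4 counts in culture and 5 to 20 in xenografts and is uncertain.

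Other genes of the same structure, 84 that the list does not hold, were 81 rows in the table. Of 45 rows tested with the empty vector 33 rose and 2 fell between culture and xenograft, with a median log2 difference of 1.17, and with BBOX1 35 of 45 rose and 2 fell, with a median of 1.66. Over all genes 35.5% rose and 33.1% fell with the empty vector and 36.1% and 32.1% with BBOX1. The BBOX1 counts were 33 and 3 without BBOX1 xenograft replicate 1, where 38.4% of genes rose and 37.6% fell. Only 35 rows of this list were tested between cultures, so others entered only through their tumours, which favours a rise. Of all genes of that kind, 84.9% were higher with the empty vector and 89.3% with BBOX1. The counts of this list between settings are therefore a description. With the empty vector ODF3B rose from 2.59 to 32.7 CPM (log2 3.68, SE 0.16) and CCDC146 from 1.2 to 12.2 CPM (log2 3.37, SE 0.23). With BBOX1 in tumours 1 of 46 rows was called higher, SPATA18 (log2 1.00, SE 0.21), 0 were lower, and the median was 0.30, where 1.91% of all genes were higher and 3.63% lower. Without BBOX1 xenograft replicate 1, 7 of 48 were higher and 0 lower, where 11.1% of genes were higher and 14.7% lower. In culture KIF9, a kinesin of the central pair, was the 1 row of 35 that rose (log2 0.50, SE 0.16), where 8.53% of all genes rose. A full X-box occurred in 27 of 66 of their promoters (40.9%).

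Of 21 multiciliogenesis genes, which act upstream in basal body amplification and cell fate, 17 were tested between settings. With the empty vector 0 rose and 9 fell, where 35.5% of all genes rose and 33.1% fell. With BBOX1 2 rose and 9 fell, where 36.1% rose and 32.1% fell. The latter counts became 3 and 10 without BBOX1 xenograft replicate 1, where 38.4% rose and 37.6% fell. The fallen genes with the smallest p were CDC20, TFDP1 and STIL, which also serve the cell and centriole cycles of dividing cells: with the empty vector CDC20 went from 344 to 167 CPM, TFDP1 from 140 to 51.5 CPM and STIL from 57.2 to 24.9 CPM. GMNC, which acts before MCIDAS, was at 2.64, 2.41, 2.48 and 4.03 CPM on average in empty-vector culture, BBOX1 culture, empty-vector xenografts and BBOX1 xenografts. FOXN4 was at or near 0, and DEUP1, which builds the deuterosomes of multiciliated cells, averaged at most 0.132 CPM.

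Intraflagellar transport and BBSome genes, which motile and primary cilia share, were tested in 39 rows. With the empty vector 20 rose and 6 fell (median log2 0.35), where 35.5% of all genes rose and 33.1% fell. With BBOX1 23 rose and 3 fell (median 0.40), where 36.1% rose and 32.1% fell. Without BBOX1 xenograft replicate 1 the counts were 23 and 9, where 38.4% rose and 37.6% fell. IFT57 and IFT43 rose by log2 1.06 (SE 0.08) and 1.43 (SE 0.11) with the empty vector. Of 32 rows of primary cilium genes tested, 13 rose and 11 fell with the empty vector (median -0.01), near the shares over all genes. With BBOX1 17 rose and 9 fell (median 0.32), and 17 and 10 without BBOX1 xenograft replicate 1, beside the same shares over all genes. TCTN1, of the transition zone, rose by log2 1.52 (SE 0.08), GLI1, a Hedgehog target, by 2.52 (SE 0.22), and CEP97, which holds back cilium growth, fell by 1.34 (SE 0.09), all with the empty vector. With BBOX1 in tumours the counts were 1 of 39 higher (IFT80) and 3 of 32 higher (SMO, INPP5E and PKD1), with 0 lower in both lists, where 1.91% of all genes were higher. Without BBOX1 xenograft replicate 1 these became 4 of 39 and 11 of 32 higher with 1 lower in each, where 11.1% of genes were higher and 14.7% lower. Multiciliogenesis genes had 0 higher and 2 lower of 17, where 1.91% of all genes were higher and 3.63% lower. Without that replicate they had 2 higher and 3 lower of 17, near the 11.1% and 14.7% over all genes.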

How the data were processed

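Polyadenylated RNA of 12 libraries was measured, and groups and replicate numbers came from the sample titles. The deposited values are unnormalised whole-number counts of reads for each gene. The build was hg38 and the tools named are STAR, fastp, DESeq2 and featureCounts, per the submitters' processing notes. Versions, strand setting and annotation were not given in the sources used here. The 58735 identifiers and names were those of GENCODE release 29, whose exon lengths gave RPKM. Per the labels' protocols the reads were paired ends of 100 bases and the kit (NEBNext Ultra) is of a kind without strand marking.

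The main test was the quasi-likelihood F test of edgeR 4.0.16 (R 4.3.3) after TMM scaling and filterByExpr at its minimum count of 10. Its p-values were adjusted by Benjamini-Hochberg over every gene tested, with 0.05 as the threshold. Each comparison was fitted on its own 6 libraries, and the difference between settings on all 12. CPM and RPKM use 1 TMM scaling of all 12 libraries. SE is taken as the size of the log2 fold change over the root of F. With 1 to 3 counts in a group, a ratio of summed counts has an exact binomial interval at 95%, which covers counting error only. Scripts were tested on simulated counts.

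The members and the companion lists were chosen with earlier results of these data known. Named with values in every library were the regulators, members named earlier for the xenograft contrast, members called in culture, and up to 20 others of at least 1 CPM by size of change; of each companion list up to 3 genes of smallest p. Some genes that this rule gives are not reported here. DNAI1, CCDC114, RSPH4A, SPAG16 and other genes given in passing were added after their values were seen. So was the split of rows by whether they were also tested between cultures. Same-numbered libraries of different groups were not paired, since the correlations of their deviations were between -0.0834 and 0.0368 over 12 pairs. Alternatives were DESeq2 size factors, no filter, DESeq2 1.42.0, 3 libraries at 1 CPM or more as the filter, a replicate block, all 12 libraries in 1 fit, and each library left out.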

Additional observations from a re-analysis of the deposited data

Results flagged for a closer look

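Genes were looked at again where the effect of BBOX1 in xenografts and its effect in culture differed by a test of that difference, fitted on all 12 libraries. There were 3 such members. CCDC40 had a log2 difference of 0.87 (SE 0.20), SPEF2 of 0.99 (SE 0.23) and CFAP70 of 2.25 (SE 0.62). For CCDC40 and SPEF2 all 3 BBOX1 tumours were above all 3 empty-vector tumours, and for CFAP70 too, with 85, 121 and 118 counts against 55, 54 and 42. In culture CFAP70 had 16, 5 and 1 counts with BBOX1, against 6, 17 and 16 without it, so its difference rests on low counts there. Each call was lost when some single libraries were left out: 7 of 12 for CCDC40, 5 of 12 for SPEF2 and 9 of 12 for CFAP70. The xenograft contrast inside this difference helped to choose the members, so these values are a description.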

How the results depend on the processing

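Between settings, the counts of members that rose or fell stayed within 1.5 times under all alternatives run: 27 to 34 rose with the empty vector and 34 to 39 with BBOX1. Over all genes, the share that rose under them ran from 19.8% to 36.5% with the empty vector and from 20.6% to 38.4% with BBOX1. It was lowest with no filter. Except with no filter, the member counts include rows that entered only through their tumours, which favours a rise. In culture 1 member fell, and 0 with all 12 libraries in 1 fit; the rises ran from 0 to 1 as libraries were left out, the 1 coming without BBOX1 replicate 2. In xenografts 14 members were higher, and 5 with the replicate number as a block; leaving out single libraries gave 3 to 21. Lower members there were 0, 1 with all 12 libraries in 1 fit, and 0 to 2 as libraries were left out. For the difference between settings the 3 higher members became 10 with no filter, 8 with DESeq2 and 0 to 11 as libraries were left out, and the 0 lower became 0 to 1. The replicate block gave 31 and 36 risen members between settings and 2 for the difference; the numbers pair no samples, since 0 of 12 correlations passed 0.1 and 4 of 12 libraries correlated best with their own number. Over all genes, the xenograft calls of 308 higher and 586 lower became 731 and 1002 with DESeq2, 797 and 1408 with no filter, 103 and 352 with the block, and 1563 and 2105 with all 12 libraries in 1 fit; with single libraries left out, higher calls ran from 22 (without empty-vector replicate 2) and lower calls from 153 (without BBOX1 replicate 3) to 1854 and 2447 (without BBOX1 replicate 1). The culture calls of 1276 and 1176 became 1 and 1 with all 12 libraries in 1 fit. Those of the difference, 326 and 552, became 605 and 1088 with DESeq2 and 570 and 1092 with no filter. With the block they became 176 and 372. With single libraries left out, higher calls of the difference ran from 63 (without BBOX1 culture replicate 2) to 1432 (without BBOX1 xenograft replicate 1). Its lower calls ran from 206 (without BBOX1 culture replicate 1) to 2750 (again without BBOX1 xenograft replicate 1). Of 1100 values of called members under an alternative, 121 no longer passed and 0 changed direction. Cause of these changes was not tested, except that leaving out a library leaves fewer samples. With the RFX half-site in place of the full X-box, 71.1% of members' promoters and 45.2% of all promoters had a match. The filter on low counts kept 12 rows out of every test.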
